A study of Mus musculus with 18 samples.

Results

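The chitinase-like and resistin-like genes *Chil1*, *Chil3*, *Chil4*, *Retnla* and *Retnlg* were examined in the RNA-seq profiles of mouse monocytes and of the monocyte-derived cells (MDCs) grown from them with GM-CSF. The genes were taken by symbol from the table of expression values, and all 5 were found among its 20298 genes. The study asked how STAT5 tetramers act in monocytes that respond to GM-CSF, and it compared wild-type (WT) C57BL/6 mice with C57BL/6 mice carrying knockin mutations in the N-domains of both *Stat5a* and *Stat5b* (DKI), in which STAT5 pairs into dimers but cannot build tetramers. Ly6C+ CCR2+ monocytes of each genotype were sequenced untreated (day 0), and MDCs of each genotype after 3 and after 6 days with 20 ng/mL GM-CSF, which gives 6 groups with 3 libraries in each. The knockin is carried in the germline, so all cells of a DKI mouse have it. The series description gives bone marrow as the source and 3 independent experiments, and the number of mice behind a library is not stated, so p-values measure the spread between these libraries. The sample labels give liver as the tissue, but the hepatocyte genes *Alb*, *Apoa1*, *Ttr* and *Serpina1c* together reached at most 0.0470 RPKM (reads scaled by gene length and by the mapped reads of the library) in any group, whereas 5 monocyte genes (*Ly6c2*, *Ccr2*, *Csf1r*, *Cd14* and *F13a1*) summed to between 2861 and 4106 RPKM in WT and between 3168 and 3798 RPKM in DKI monocytes on day 0. The monocytes were enriched with a kit that removes other cells, so a remnant of other marrow cells is possible. On day 0, over both genotypes, 4 granulocyte precursor genes summed to between 746 and 1476 RPKM. In the same libraries 5 eosinophil genes summed to between 128 and 461 RPKM and 5 B cell genes to between 34.2 and 261 RPKM. The part of such cells in the day 0 levels of the genes examined was not tested.

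Chitinase-like proteins have the fold of chitinases, the enzymes that cut chitin, but have lost the residues needed for catalysis, and they are secreted. *Chil3* encodes Ym1 and *Chil4* its near copy Ym2, which are used as marks of alternatively activated mouse macrophages, and *Chil3* is also abundant in marrow myeloid cells. *Chil1* encodes a secreted protein stored in the specific granules of neutrophils. Resistin-like molecules are small secreted proteins rich in cysteine. *Retnla* encodes RELM-alpha, induced in macrophages by IL-4 and IL-13 through STAT6, and *Retnlg* encodes RELM-gamma, made in marrow and by neutrophils.

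The genes lie in 3 places of the mouse genome (mm10, which is GRCm38). *Chil1* (Entrez gene 12654) spans chr1:134182156-134190031 on the plus strand. *Chil3* (12655) at chr3:106147554-106167564 and *Chil4* (104183) at chr3:106201491-106219479 are neighbours on the minus strand. *Retnla* (57262) at chr16:48842609-48844461 and *Retnlg* (245195) at chr16:48872608-48874498 are neighbours on the plus strand. The 250 bases before the annotated start of both pairs of neighbours (RefSeq, GRCm38.p6) are shown because the members of each pair are related neighbours whose levels are set side by side here. Capitals mark matches on either strand to 5 short patterns: TTCNNNGAA (the GAS form that STAT5 binds), the same with 4 bases between TTC and GAA (the form preferred by STAT6), TTGCNNAA (a C/EBP core), GAGGAA (a PU.1 core) and TATAAA (the TATA box). None of the matches overlapped another.
Chil3, chr3:106167565-106167814, minus strand: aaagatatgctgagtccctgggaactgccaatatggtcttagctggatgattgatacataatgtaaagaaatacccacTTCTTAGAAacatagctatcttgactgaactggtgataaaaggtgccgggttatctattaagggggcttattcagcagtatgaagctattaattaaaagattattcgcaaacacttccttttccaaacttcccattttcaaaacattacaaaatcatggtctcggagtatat
Chil4, chr3:106219480-106219729, minus strand: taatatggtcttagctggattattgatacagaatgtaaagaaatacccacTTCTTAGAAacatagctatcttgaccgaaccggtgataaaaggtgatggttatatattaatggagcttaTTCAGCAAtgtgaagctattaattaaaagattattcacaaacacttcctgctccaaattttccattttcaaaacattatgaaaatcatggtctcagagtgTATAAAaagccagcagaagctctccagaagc
Retnla, chr16:48842359-48842608, plus strand: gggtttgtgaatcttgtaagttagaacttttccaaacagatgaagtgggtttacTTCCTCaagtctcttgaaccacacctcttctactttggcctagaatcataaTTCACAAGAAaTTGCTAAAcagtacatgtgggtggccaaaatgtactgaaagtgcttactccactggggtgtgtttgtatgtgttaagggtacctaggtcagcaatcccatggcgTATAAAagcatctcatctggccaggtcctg
Retnlg, chr16:48872358-48872607, plus strand: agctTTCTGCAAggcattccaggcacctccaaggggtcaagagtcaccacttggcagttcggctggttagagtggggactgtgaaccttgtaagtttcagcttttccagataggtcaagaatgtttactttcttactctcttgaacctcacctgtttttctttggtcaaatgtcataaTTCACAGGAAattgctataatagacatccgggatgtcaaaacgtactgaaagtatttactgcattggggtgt

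In the windows of 300 bases that reach from 250 before to 50 after each start, *Chil3* and *Chil4* aligned over 272 columns, of which 251 (92.3%) were identical, and both held the GAS match TTCTTAGAA, which begins 172 bases before the start of *Chil3* and 200 bases before that of *Chil4*. *Chil4* alone of this pair had a C/EBP core. The TATA box of *Chil3* crosses its annotated start and so is not whole in the sequence printed above. *Retnla* and *Retnlg* aligned with 178 identical columns (78.1%). Each had 1 STAT6 match, TTCACAAGAA in *Retnla* and TTCACAGGAA in *Retnlg*. In *Retnla* the C/EBP core TTGCTAAA follows it after 1 base, while the C/EBP core of *Retnlg*, TTCTGCAA on the opposite strand, lies at the far end of the window, 246 bases before the start. *Retnla* also had a PU.1 core. The *Chil1* window held none of the 5 patterns. Such matches are common: of 32544 promoter windows of this length, 8.33% held TTCNNNGAA, 6.98% the form with 4 bases in between, 10.8% TTGCNNAA, 28.1% GAGGAA and 13.6% TATAAA. They describe the sequence only and do not show binding.

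RPKM values carry no read totals, and the depth was estimated from 906 genes with a single exon, whose low values fall on whole reads. The estimates lay between 29350000 and 42800000 reads per library, and at these depths 81.8% of the 1645 low values lay within 0.05 of a whole read, where values spread evenly would give 10%. The estimate was chosen to make this share high. Reads given below are approximate for this reason. A count of 3 reads on *Retnla* corresponds to between 0.116 and 0.170 RPKM. Replicates of a group had a Pearson's r of 0.902 to 0.970 over 10417 genes. The knockin changes the protein, so that no RPKM value verifies the genotype. On day 0 the mean level was 14.5 (WT) and 13.7 (DKI) RPKM for *Stat5a*, and 31.0 (WT) and 29.3 (DKI) RPKM for *Stat5b*. *Stat5a* was called lower in DKI MDCs on day 3 (12.4 against 42.6 RPKM, −1.67 on the log2 scale, limma adjusted p = 0.0224) and on day 6 (11.7 against 41.6 RPKM, −1.68, adjusted p = 0.0357, or 0.0516 with the replicate number as a block). *Stat5b* had lower DKI levels with separate ranges on both days (14.6 against 21.7 and 13.5 against 22.6 RPKM) but was not called.

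**Figure D1:**
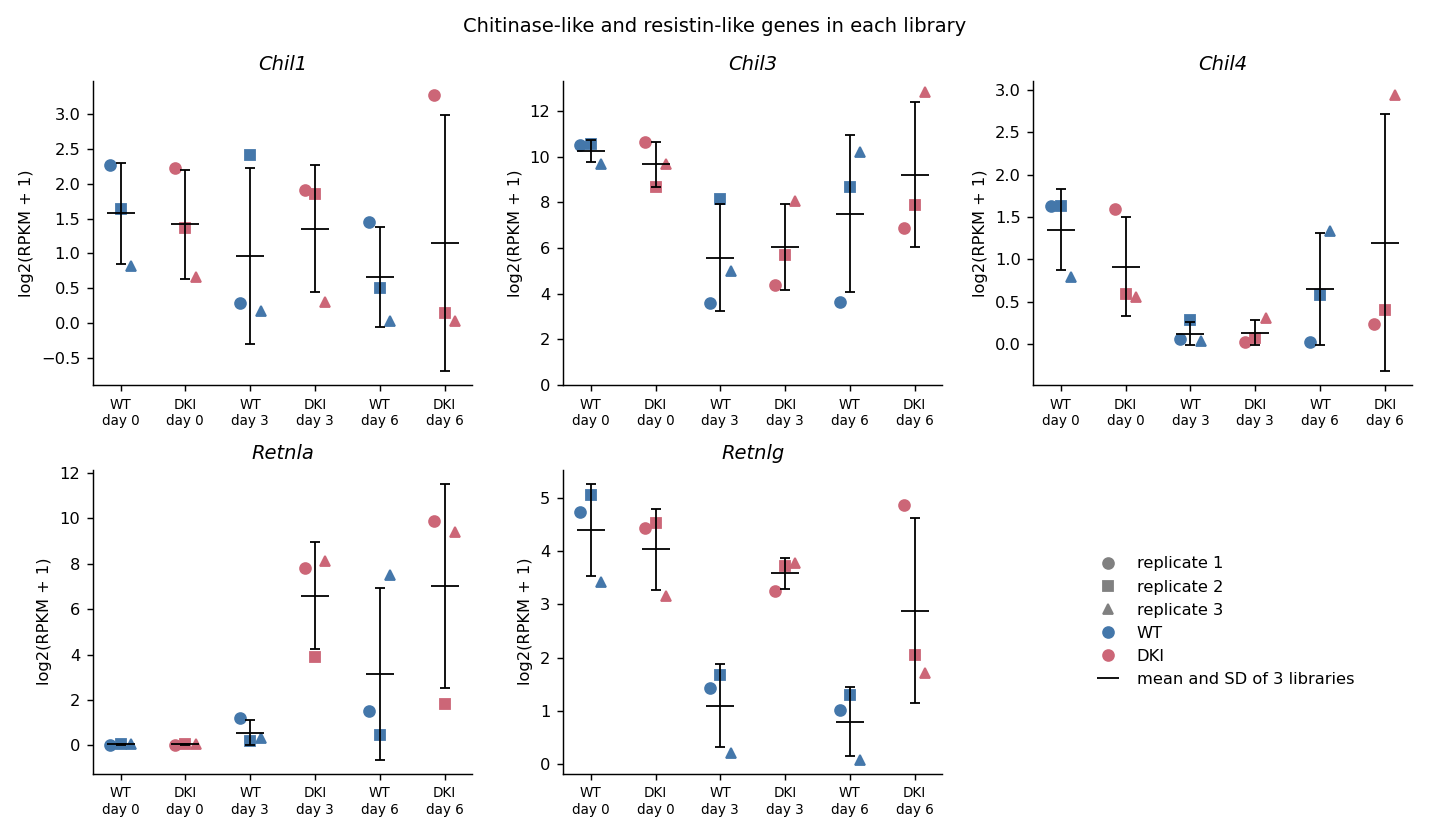
Level of each gene in each of the 18 libraries as log2(RPKM + 1), in blue for WT and red for DKI, with the shape of the point giving the replicate number and the black mark the mean and SD of these log values over 3 libraries. *Retnla* is near 0 in the 6 day 0 libraries and high in 2 of 3 DKI libraries on days 3 and 6, and *Retnlg* is higher in all 3 DKI than in all 3 WT libraries on both days.

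*Retnla* was nearly silent in monocytes and was present in MDCs of DKI mice. On day 0 it was at 0, 0.0395 and 0.0514 RPKM in the WT replicates and at 0, 0.0387 and 0.0566 RPKM in those of DKI, which is 0 or 1 read in each, so all 6 lie under the 3 reads taken as the floor. On day 3 it stood at 1.28, 0.133 and 0.260 RPKM in the WT replicates but at 222, 13.8 and 272 RPKM in those of DKI. All 3 DKI libraries were above all 3 WT libraries, and DKI replicate 2 was the lowest of its group by far. The mean was 169.2 ± 137 RPKM in DKI and 0.558 ± 0.629 RPKM in WT MDCs (SD, n = 3), with about 10634 reads in the 3 DKI libraries against 35 in the 3 WT libraries, of which 27 came from WT replicate 1. WT replicates of day 6 gave 1.82, 0.389 and 178 RPKM, and DKI replicates gave 925, 2.53 and 659 RPKM. The groups overlapped on that day, because WT replicate 3 had turned high and DKI replicate 2 was again low. In order of mean level, *Retnla* stood highest in DKI day 6 and then in DKI day 3, WT day 6, WT day 3, DKI day 0 and WT day 0. Of these neighbours only WT day 3 and DKI day 0 had ranges that did not overlap.

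*Retnlg* started high in monocytes, fell in WT MDCs and stayed higher in DKI MDCs. On day 0 it had 25.6, 32.5 and 9.75 RPKM in WT and 20.6, 22.0 and 7.91 RPKM in DKI monocytes, replicate 3 being the lowest in both genotypes. Values on day 3 were 1.68, 2.19 and 0.153 RPKM in WT and 8.53, 12.2 and 12.7 RPKM in DKI MDCs. The groups were apart, and the DKI libraries lay close together, at 11.2 ± 2.28 RPKM against 1.34 ± 1.06 RPKM in WT (SD, n = 3). Values on day 6 were 1.03, 1.46 and 0.0543 RPKM in WT, the last of them from about 1 read, and 28.5, 3.12 and 2.28 RPKM in DKI MDCs. Again every DKI library was above every WT library, but the DKI mean of 11.3 RPKM rested on replicate 1. The order of means was WT day 0, DKI day 0, DKI day 6, DKI day 3, WT day 3 and WT day 6, and only DKI day 3 and WT day 3 among these neighbours had separate ranges.

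*Chil3* was the most abundant of the 5 genes in 15 of 18 libraries on the RPKM scale, which corrects for length, and *Retnla* was in the other 3 (DKI replicates 1 and 3 of day 3 and DKI replicate 1 of day 6). On day 0 it had 1443, 1481 and 823 RPKM in WT and 1581, 406 and 825 RPKM in DKI monocytes. Values on day 3 were 11.1, 282 and 30.7 RPKM in WT and 19.8, 50.4 and 269 RPKM in DKI MDCs, with wide overlap and the highest library carrying a different replicate number in each genotype. Values on day 6 were 11.5, 411 and 1171 RPKM in WT and 118, 235 and 7264 RPKM in DKI MDCs. The single DKI library at 7264 RPKM, replicate 3, exceeded every other library of the series. Each of the 6 groups overlapped with its neighbours in the order of means, which ran DKI day 6, WT day 0, DKI day 0, WT day 6, DKI day 3 and WT day 3.

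*Chil4* followed *Chil3* at a far lower level. It had 2.10, 2.10 and 0.732 RPKM in WT and 2.01, 0.506 and 0.471 RPKM in DKI monocytes on day 0. On day 3 it lay between 0.0168 and 0.234 RPKM over both genotypes, from 1 to 12 reads a library. Values on day 6 were 0.0189, 0.494 and 1.53 RPKM in WT and 0.176, 0.322 and 6.70 RPKM in DKI MDCs, so that the library with the most *Chil3* also had the most *Chil4*. The level of *Chil4* was between 0.0571% and 0.338% of that of *Chil3* over the 18 libraries, with a median of 0.122%, and between 0.0571% and 0.150% in the 13 libraries in which *Chil3* exceeded 100 RPKM. Of the 1490 windows of 50 bases in the *Chil4* transcript, 275 (18.5%) also occur unchanged in *Chil3*, and how reads that fit both genes were counted is not given in the sources used here. The share of *Chil4* reads that came from *Chil3* was not tested, and the *Chil4* values are uncertain. The transcripts of *Retnla* and *Retnlg* share no window of that length.

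**Figure D2:**
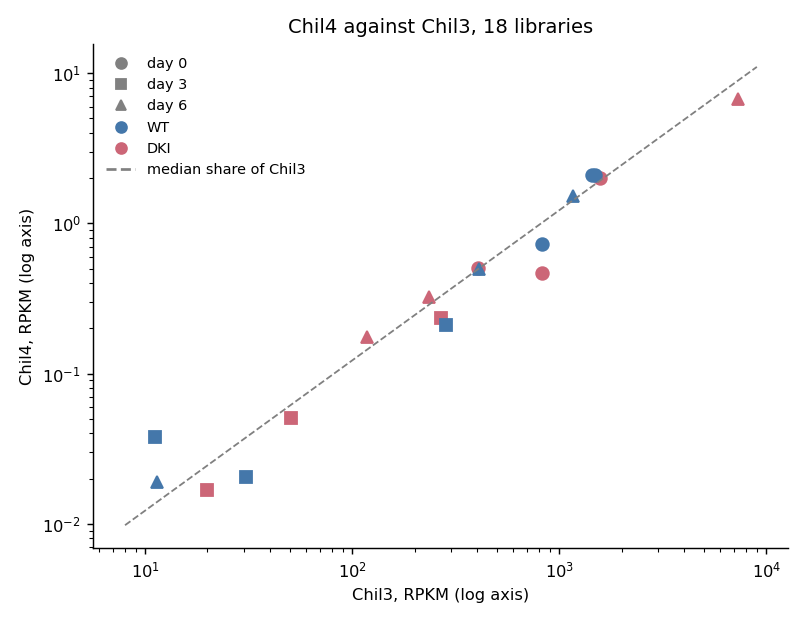
*Chil4* against *Chil3* in the 18 libraries, both in RPKM on log axes, with WT in blue, DKI in red, a shape for each day, and a dashed line at the median share of 0.122%. The points keep close to the line over the whole range of *Chil3*, and the *Chil4* values of the 5 libraries below 100 RPKM of *Chil3* rest on 1 to 3 reads.

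*Chil1* was low throughout and varied more between libraries of one group than between groups. On day 0 it had 3.80, 2.13 and 0.764 RPKM in WT and 3.67, 1.58 and 0.581 RPKM in DKI monocytes, the same order of replicates in both. Values on day 3 were 0.218, 4.34 and 0.129 RPKM in WT and 2.77, 2.60 and 0.228 RPKM in DKI MDCs. Values on day 6 were 1.73, 0.414 and 0.0196 RPKM in WT and 8.71, 0.106 and 0.0171 RPKM in DKI MDCs. All neighbours in the order of means (DKI day 6, WT day 0, DKI day 0, DKI day 3, WT day 3, WT day 6) overlapped. The highest library of DKI day 6 had 509 times the level of the lowest, but the lowest rests on about 1 read against 444. That is under the floor of 3 reads, as is the lowest WT library of day 6 with about 1 read.

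The genotypes were compared on each day as log2(RPKM + 1) in limma over all genes with a mean above 2 RPKM in either group. Calls needed a fold change over 1.5 together with p under 0.05 after Benjamini-Hochberg adjustment. This scale understates the change of genes with low RPKM. In bulk RNA, a smaller share of cells that make a transcript and less of it in each cell cannot be told apart. On day 0, *Chil1*, *Chil3* and *Retnlg* passed the filter and none was called, as for 0% of the 9179 genes tested, of which 44 had an unadjusted p under 0.05 (352 with the replicate number as a block). The log2 difference of DKI minus WT was −0.16 (95% interval −1.42 to 1.10) for *Chil1*, −0.58 (−1.84 to 0.68) for *Chil3* and −0.37 (−1.70 to 0.96) for *Retnlg*. *Retnlg*, *Chil1* and *Chil4* (which was under the filter) were each lower in DKI in all 3 same-numbered pairs. The share of all genes with all 3 pairs in the same direction was not computed for any day, so counts of pairs are a description.

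On day 3, *Retnla* and *Retnlg* were called higher in DKI MDCs, where 3.21% of the 9740 genes tested were called higher and 4.21% lower. *Retnla* differed by 6.02 on the log2 scale (standard error 1.10, limma adjusted p = 0.0289) and *Retnlg* by 2.49 (standard error 0.40, limma adjusted p = 0.0213). Both passed the filter only through the DKI group, and with no filter neither was called (limma adjusted p = 0.129 for *Retnla* and 0.107 for *Retnlg*). Both were higher in DKI in 3 of 3 same-numbered pairs, by 6.61, 3.70 and 7.76 for *Retnla* and by 1.83, 2.05 and 3.57 for *Retnlg*. Both also had ranges that did not overlap, as did 36.3% of the genes tested. *Chil3* differed by 0.47 (95% interval −2.81 to 3.75, adjusted p = 0.854) and was higher in DKI in 2 of 3 pairs. *Chil1* and *Chil4* were under the filter. The library names place replicate 1 of days 3 and 6 in an earlier year than all other libraries. Within the 4 libraries of the later year the day 3 difference was 5.73 for *Retnla* (limma adjusted p = 0.109) and 2.81 for *Retnlg* (limma adjusted p = 0.0651), so neither was called, and the earlier year holds 1 library per genotype and day. Leaving out any 1 of 5 of the 6 libraries also ended the *Retnla* call, all except DKI replicate 2, with adjusted p between 0.0570 and 0.102. The *Retnlg* call was lost with a pseudocount of 0.1 (limma adjusted p = 0.0556) and without WT replicate 1 (adjusted p = 0.0656), DKI replicate 2 (0.0559) or DKI replicate 3 (0.0572). With 1 library left out, the differences themselves stayed between 5.28 and 7.38 for *Retnla* and between 2.04 and 2.77 for *Retnlg*.

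On day 6 all 5 genes passed the filter and none was called, where 2.72% of the 9842 genes tested were called higher and 4.82% lower (268 and 474 genes, or 323 and 285 after median centring, which removes a median difference of −0.17 over all genes tested). *Chil1*, *Chil4* and *Retnlg* passed the filter only through the DKI group. For *Chil1* (8.71 RPKM in replicate 1) and *Chil4* (6.70 RPKM in replicate 3) this rested on 1 library each. With no filter the limma adjusted p of *Retnlg* was 0.378. *Retnla* differed by 3.86 (standard error 2.67, adjusted p = 0.382 from limma) and *Retnlg* by 2.08 (standard error 0.85, adjusted p = 0.172 from limma). Both were higher in DKI in all 3 pairs, and *Retnlg* alone of the 5 genes had ranges that did not overlap, as did 37.2% of the genes tested. The 95% interval of the difference was −2.54 to 10.27 for *Retnla*, 0.03 to 4.13 for *Retnlg*, −3.41 to 6.80 for *Chil3*, −1.33 to 2.42 for *Chil4* and −1.72 to 2.71 for *Chil1*. Differences of more than 2-fold in either direction lie within the interval of 4 of the 5 genes in this fit, which ignores the replicate number. With the replicate number as a block, the standard error was 0.51 against 0.92 for *Chil1*, 0.86 against 2.12 for *Chil3* and 0.43 against 0.78 for *Chil4*. It was 1.51 for *Retnla* and 0.64 for *Retnlg*. None of the 5 genes was called with the block, and intervals were not computed for it. Within the libraries of the later year the difference was 1.61 for *Retnla* and 1.19 for *Retnlg*.

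**Figure D3:**
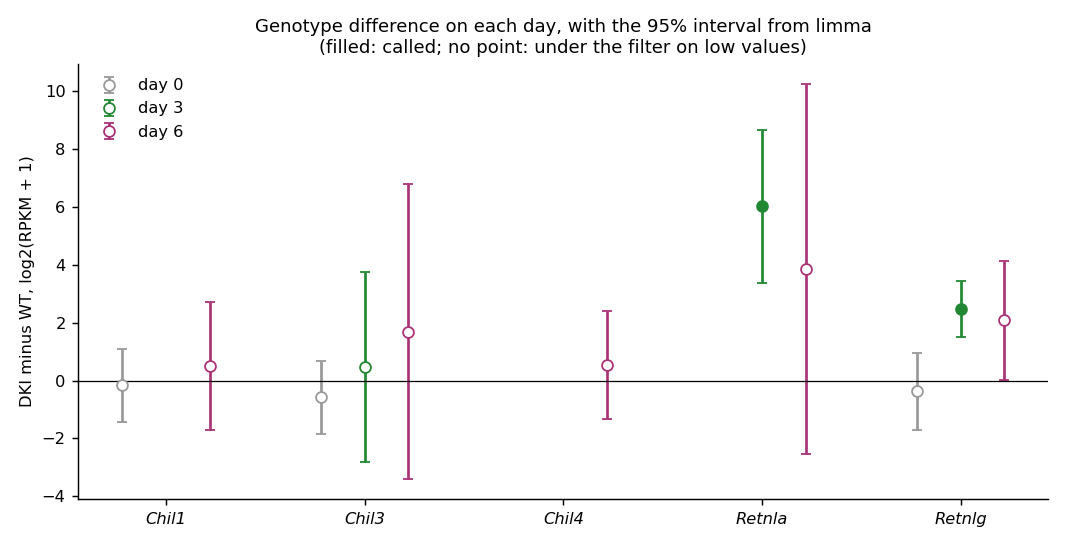
Difference of DKI minus WT in log2(RPKM + 1) for each gene on days 0, 3 and 6, with the 95% interval from limma. Filled points were called and genes under the filter on low values have no point. The 2 filled points are *Retnla* at 6.02 and *Retnlg* at 2.49 on day 3, and the day 6 intervals are wider than those of day 3.

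Whether the genotype difference itself changed with culture was tested as an interaction over the 12 libraries of the days compared. From day 0 to day 3, *Retnla* was called (6.02, standard error 1.22, limma adjusted p = 0.0271), as 1.20% of the 10212 genes tested were in that direction. *Retnlg* had an interaction of 2.85 (standard error 0.73) with an adjusted p of 0.0675 in limma, and it was called with the replicate number as a block (limma adjusted p = 0.0204). *Retnla* had at most 1 read in each day 0 library, so its value in this test is that of day 3 and gives no separate support. The *Retnla* call was lost with no filter (limma adjusted p = 0.0902), with all 18 libraries fitted together (0.295), and without any 1 of the 6 day 0 libraries or WT day 3 replicate 2 or 3 (0.0551 to 0.0683). From day 0 to day 6, none of the 5 genes was called, where 0.898% were called higher (93 higher and 197 lower, or 126 and 150 after median centring), and *Retnlg* had the smallest adjusted p of the 5 (2.45, standard error 1.10, limma adjusted p = 0.285). From day 3 to day 6, 0% of the 9985 genes tested were called in either direction, with 89 at an unadjusted p under 0.05 in limma (189 with the block).

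Within each genotype, the days of culture with GM-CSF were compared over the libraries that also entered the genotype comparisons, so these results are not independent of those above. From day 0 to day 3, *Chil3* and *Retnlg* were called lower in WT, where 22.8% of genes were called lower. *Chil3* fell by 4.66 on the log2 scale (standard error 1.05, limma adjusted p = 0.0103) and *Retnlg* fell by 3.31 (standard error 0.53, limma adjusted p = 0.00273). *Retnlg* passed the filter only through day 0. With no filter it was still called (limma adjusted p = 0.0251), while the *Chil3* call was lost (limma adjusted p = 0.0617). In DKI cells, *Chil3* also was called lower, with 21.1% of genes, and fell by 3.62 (standard error 0.96, limma adjusted p = 0.0278). That call was lost with no filter (limma adjusted p = 0.107), with all 18 libraries fitted together (0.0932) and without any 1 of DKI day 0 replicates 1 and 3 or DKI day 3 replicates 1 and 2, with adjusted p between 0.0519 and 0.0861. *Retnlg* did not pass in DKI cells (−0.45, 95% interval −1.38 to 0.47), although without DKI day 0 replicate 3 it was called at −0.90 (limma adjusted p = 0.0391). *Retnla* was called higher in DKI cells, with 13.1% of genes (1297 higher and 2097 lower, or 1743 and 1622 after median centring), at 6.55 (standard error 1.06, limma adjusted p = 0.00623). It passed the filter only through day 3, and with no filter it was still called (limma adjusted p = 0.0370). Its fold change is better read from the reads, about 10634 on day 3 against 2 on day 0, which is a ratio of 5400 after scaling for depth, with an exact (Clopper-Pearson) 95% interval of 1494.5 to 44594 for counting error only. In WT cells the same count went from 2 to 35 reads, a ratio of 19.4 (exact 95% interval 4.9956 to 166.87), with 27 of the 35 reads in replicate 1, and the gene was under the filter. *Chil4* had 303 reads in WT and 172 in DKI monocytes, and 15 in each genotype on day 3, and was under the filter in both.

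Between day 3 and day 6 no gene was called in WT (0% of 9613) or DKI MDCs (0% of 9540), with 722 and 93 genes at an unadjusted p under 0.05 in limma (1221 and 471 with the block). *Chil3* was higher on day 6 in all 3 same-numbered DKI pairs, by 2.51, 2.20 and 4.75 on the log2 scale, and in all 3 WT pairs, by 0.04, 0.54 and 5.21. Its mean difference was 3.15 in DKI (standard error 1.70) and 1.93 in WT (standard error 1.88). *Retnla* moved by 2.05, −2.06 and 1.27 in the 3 DKI pairs and by 0.30, 0.29 and 7.15 in the 3 WT pairs.

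Most other members of both families were scarce. Of 9 relatives, the chitinase genes *Chia1*, *Chit1* and *Ctbs*, the chitinase-like *Chil5*, *Chil6*, *Chid1* and *Ovgp1*, and the resistin family genes *Retn* and *Retnlb*, only *Ctbs* (between 7.58 and 23.0 RPKM) and *Chid1* (between 4.81 and 14.4 RPKM) passed the filter in any comparison. *Ctbs*, which encodes the lysosomal enzyme chitobiase, was called higher in DKI MDCs on day 3, at 13.5 against 8.45 RPKM (0.62 on the log2 scale, limma adjusted p = 0.0428), but not with the replicate number as a block (adjusted p = 0.0855). *Chid1*, which encodes a lysosomal chitinase-domain protein, was called higher in WT on day 3 than on day 0, at 12.96 against 6.56 RPKM (limma adjusted p = 0.0198). *Retn* did not exceed 0.0800 RPKM in any library, and *Retnlb* did not exceed 0.0739 RPKM. Of the receptors and binding partners reported for these proteins, *Tmem219*, *Lgals3*, *Ptgdr2*, *Cd44*, *Cap1*, *Tlr4* and *Ager* were analysed and 5 passed the filter. None was called between genotypes on day 0, 3 or 6, and their median difference was 0.18 on day 3, against −0.11 over all genes tested. From day 0 to day 3, *Cd44*, a hyaluronan receptor, was called lower in both genotypes, at −1.82 in WT and −1.78 in DKI cells. *Lgals3*, which encodes galectin-3, was called higher in WT (1.91, limma adjusted p = 0.00302) and *Tlr4*, the endotoxin receptor, in DKI cells (1.12, limma adjusted p = 0.0484).

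*Retnla* is known as a target of IL-4 receptor signalling through STAT6. Of 7 genes of that pathway that passed the filter (*Il4ra* and *Stat6* among the 10 listed), none was called between genotypes on day 3 or day 6, and their median difference was −0.14 on day 3 and −0.35 on day 6, against −0.11 and −0.17 over all genes tested. *Il4ra*, which encodes the receptor chain that binds IL-4, had 235 RPKM in DKI replicate 1 of day 3, where *Retnla* was at 222 RPKM, and between 49.8 and 66.5 RPKM in the other 5 libraries of that day, DKI replicate 3 with 272 RPKM of *Retnla* included. Over the 18 libraries Pearson's r of the log2 levels of *Il4ra* and *Retnla* was 0.623. The list of 19 genes used as marks of alternative activation split. On day 3, 2 of 19 were called higher in DKI MDCs (*Mrc1* and *Igf1*) and 5 lower (*Ccl17*, *Ccl22*, *Cd209a*, *Socs2* and *Pdcd1lg2*), with a median difference of −0.03. On day 6, 5 were called higher (*Mrc1*, *Clec7a*, *Pparg*, *Igf1* and *Trem2*) and the same 5 lower, with a median of 0.57. With the replicate number as a block, *Cd209a* was not called on either day (limma adjusted p = 0.0563 and 0.0617). Of the listed genes, the largest called rise on both days was that of *Igf1*, a growth factor. Its mean was 60.8 against 0.651 RPKM on day 3 (4.95, standard error 0.62, limma adjusted p = 0.0112) and 131 against 3.22 RPKM on day 6 (4.82, standard error 0.45, limma adjusted p = 0.00770). The largest fall on both days was that of *Ccl17*, a chemokine that attracts T cells, at −7.13 on day 3 and −6.73 on day 6 on the log2 scale. These lists were put together for the question at hand with earlier results of the data known, so their counts are a description.

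**Figure D4:**
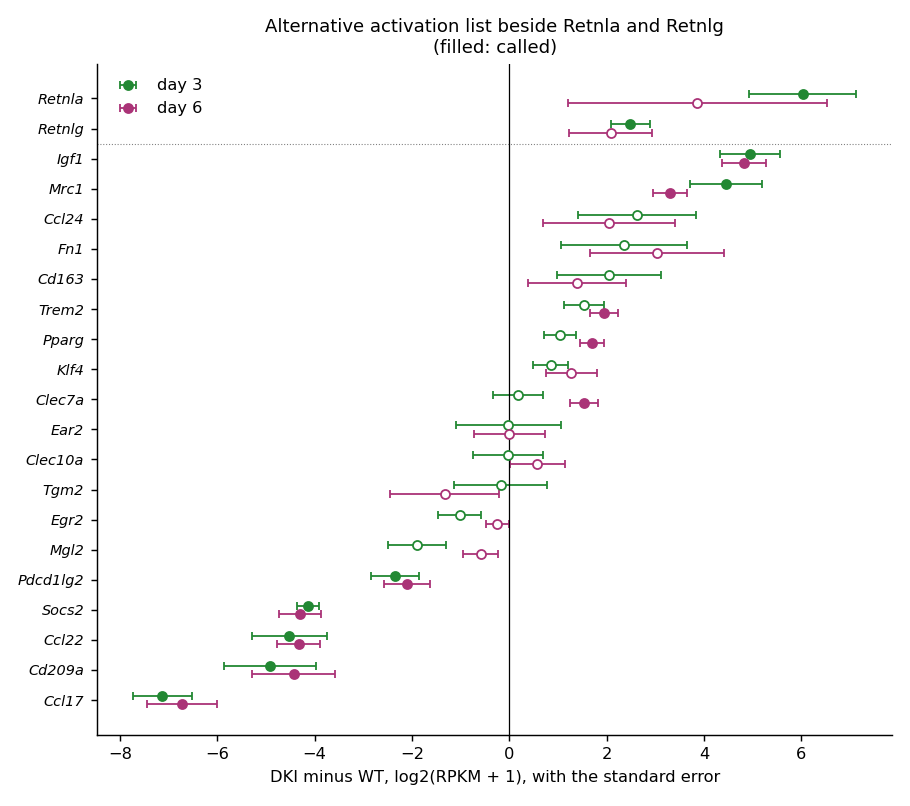
Difference of DKI minus WT in log2(RPKM + 1), with the standard error, for the 19 genes of the alternative activation list below the dotted line and for *Retnla* and *Retnlg* above it, in green for day 3 and purple for day 6 with called genes filled. On day 3 the list holds 2 called genes on the right, with *Igf1* at 4.95, and 5 on the left, with *Ccl17* at −7.13.

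Of 10 myeloid transcription factor genes, among them those of C/EBP and PU.1, 9 passed the filter and 1 was called on each of days 3 and 6. This was *Irf4*, at 17.5 RPKM in DKI against 115.1 RPKM in WT MDCs on day 3 (−2.92, standard error 0.63, limma adjusted p = 0.0446) and at −2.66 on day 6 (limma adjusted p = 0.0235). Of 13 genes of alveolar macrophages, a cell type that depends on GM-CSF and carries much *Chil3*, 10 passed the filter. On day 3, *Fabp4*, a lipid carrier, was called higher in DKI MDCs (3.99, limma adjusted p = 0.00826) and *Car4*, a carbonic anhydrase, and *Plet1* were called lower, *Plet1* by the most (−3.86, limma adjusted p = 0.0254). On day 6, *Pparg*, a nuclear receptor, was called higher (1.70, limma adjusted p = 0.0217) and *Car4* lower (−4.00, limma adjusted p = 0.0158). With the block, *Atp6v0d2*, a proton pump subunit gene, was called higher as well, on day 3 (1.84, limma adjusted p = 0.0224) and on day 6 (2.21, limma adjusted p = 0.0489). *Pparg* and *Ear2* stand in both this list and that of alternative activation.

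*Chil1* and *Retnlg* varied with genes of neutrophils. Over 11 such genes (*Ly6g*, *S100a8*, *S100a9*, *Mmp8*, *Mmp9*, *Camp*, *Ngp*, *Ltf*, *Lcn2*, *Cxcr2* and *Csf3r*), the summed level on day 3 was between 292 and 4843 RPKM in WT and between 1716 and 3763.5 RPKM in DKI MDCs. On day 6 it was between 139 and 1101 RPKM in WT and between 534 and 3830 RPKM in DKI MDCs. Single genes carried much of some sums. In WT replicate 1 of day 0, *S100a8* and *S100a9* were at 1366 and 1577 RPKM of a sum of 3985.5 RPKM. *Mmp8* was at 1113 RPKM of 1716 in DKI replicate 3 of day 3, and at 479 RPKM of 534 in DKI replicate 3 of day 6. The median difference of the 11 genes was 1.58 on day 3 and 0.45 on day 6. *Csf3r*, the receptor for G-CSF, was called higher in DKI on day 3 (3.14, limma adjusted p = 0.0426) and on day 6 (2.98, limma adjusted p = 0.0362). *Mmp8*, a collagenase gene, was also called on day 3 with the replicate number as a block (2.02, limma adjusted p = 0.0212, against 0.0958 without it), and the other 9 genes were called in neither fit on either day. *Ly6g*, a defining neutrophil gene, was at 0.525 RPKM or less in WT and between 1.38 and 7.03 RPKM in DKI MDCs on day 3. *Cxcr2*, a chemokine receptor gene of neutrophils, lay the other way, at 2.84, 19.7 and 13.03 RPKM in WT and 1.65, 3.09 and 2.73 RPKM in DKI MDCs on day 3 (−1.59, not called), and at −1.18 on day 6. Over the 18 libraries, whose same-numbered members deviate together, Pearson's r of log2 levels with the summed list was 0.803 for *Chil1*, 0.793 for *Retnlg*, 0.127 for *Chil3*, −0.0538 for *Chil4* and −0.193 for *Retnla*. With *Ly6g* alone it was 0.531 for *Chil1*, 0.630 for *Retnlg*, 0.172 for *Chil3*, 0.221 for *Chil4* and 0.628 for *Retnla*. WT replicate 2 of day 3 had the highest neutrophil sum of the cultured libraries, 4843 RPKM, mostly from *S100a8* (2192 RPKM) and *S100a9* (1756.5 RPKM), and the highest *Chil1* level of WT MDCs. Its *Ly6g* level was 0.525 RPKM and its *Retnlg* level 2.19 RPKM. The part of neutrophils in the levels of the 5 genes was not tested.

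**Figure D5:**
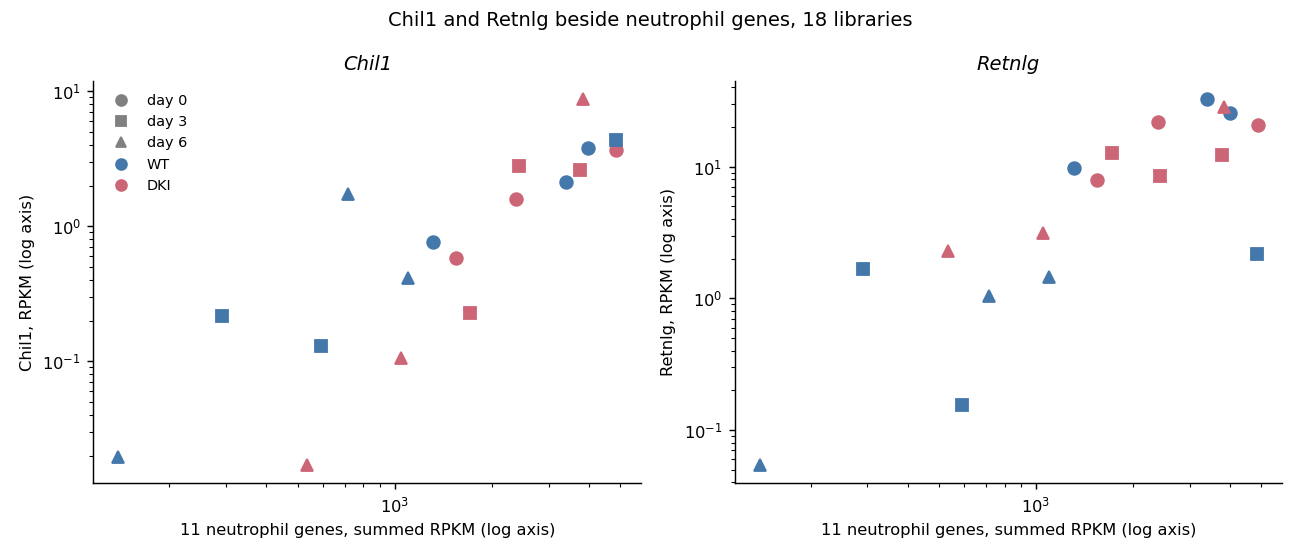
*Chil1* (left) and *Retnlg* (right) in RPKM against the summed RPKM of 11 neutrophil genes, on log axes, in each of the 18 libraries, with WT in blue, DKI in red and a shape for each day. *Chil1* tends to be higher where the sum is higher, while for *Retnlg* the WT day 3 library with a sum of 4843 RPKM lies at 2.19 RPKM and the other libraries with high sums, WT and DKI monocytes of day 0 and DKI MDCs of day 3 among them, at 7.91 RPKM or more.

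Genes of granulocyte precursors, B cells and monocytes were also measured in the MDCs of day 3, and none of the 11 that passed the filter was called between genotypes. The median difference of DKI minus WT was 1.86 for the 4 granulocyte precursor genes, all between 1.67 and 2.51, 1.27 for the 2 B cell genes that passed and 0.86 for the 5 monocyte genes, against −0.11 over all genes tested and 2.49 for *Retnlg*. The 4 granulocyte precursor genes *Elane*, *Mpo*, *Prtn3* and *Ctsg* summed to between 1.46 and 51.3 RPKM in WT and between 16.2 and 104.5 RPKM in DKI MDCs, and 5 B cell genes to between 0.991 and 1.44 RPKM in WT and between 2.75 and 8.41 RPKM in DKI MDCs. The 5 monocyte genes summed to between 489 and 720 RPKM in WT and between 746 and 1970 RPKM in DKI MDCs. From day 0 to day 3, all 4 granulocyte precursor genes and 3 of 5 monocyte genes (*Ly6c2*, *Cd14* and *F13a1*) were called lower in both genotypes, beside the fall of *Chil3*. Of the 11 neutrophil genes, *Camp* and *Csf3r* were called lower and *Cxcr2* higher in WT cells, beside the fall of *Retnlg*, with a median difference of −1.89 over the 10 that passed the filter. In DKI cells *Mmp8* and *Cxcr2* were called higher and none lower, with a median of −0.49 over all 11. *Csf1r*, the M-CSF receptor, was also called higher in DKI cells. On day 3, eosinophil genes summed to at most 34.5 RPKM, basophil genes to at most 16.5 RPKM, T and NK cell genes to at most 3.00 RPKM, and the erythroid genes analysed were at 0 in all 6 libraries of day 3. The part of these cells in the differences of the 5 genes was not tested.

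The genes most alike in pattern were sought by Pearson's r of log2(RPKM + 1) over the 18 libraries among 10416 genes, as a description. For *Retnla* they included *Flywch2* (0.903) and *Pltp* (0.898), which encodes a phospholipid transfer protein. For *Chil1* they were *Ltf* (0.958) and *Lcn2* (0.903), which encode lactoferrin and lipocalin 2 of neutrophil specific granules, and *Itgb2l* (0.902). For *Retnlg* they were *Arhgef10l* (0.926), *Atp1b3* (0.910) and *Snx27* (0.909). *Chil3* and *Chil4* were each the gene most like the other (0.859), followed for *Chil3* by *Cnot6l* (0.830) and *Gfi1b* (0.829) and for *Chil4* by *Foxj3* and *Slc30a9* (both 0.813).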

How the data were processed

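Libraries of mRNA (18) were sequenced by the authors, who per the submitters' processing notes and the study's methods aligned reads to mm10 with Subread and counted them with featureCounts (RefSeq genes). They deposited RPKM values for 20298 genes, with 1 column per library, and how reads that fit several genes were treated and whether strand was used are not given in the sources used here. Of the gene identifiers, 20082 were found in RefSeq (GRCm38.p6) and 216 were not. Some genes of the lists (*Il13ra2*, *Btk*, *Il13ra1*, *Il2rg* and *Alas2*) were not analysed here. A further gene is not reported here.

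Values were analysed as log2(RPKM + 1) with limma 3.58.1 (lmFit, eBayes with trend) in R 4.3.3, on the libraries of the groups compared, after genes with a mean of 2 RPKM or less in all groups compared had been dropped. The adjusted p of 0.05 and fold change of 1.5 are the study's limits, which it used with edgeR on counts that are not in the table. Interactions used 12 libraries. The 5 genes and all lists were chosen with earlier results of these data known. Genes named from the lists are all called relatives and receptors, and of each other list the largest called rise and fall between genotypes on each day; a few genes of the lists are named beyond this rule, chosen after their values were seen.

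Depth was estimated in Python 3.11.15 by the library size, searched between 15000000 and 50000000 reads (a multiple could serve as well), that puts most low RPKM values of single-exon genes (GENCODE annotation) on whole reads. Member reads use a transcript length fitted in the same way. Intervals and floors cover counting error only. Promoter windows came from RefSeq, and were aligned with biopython 1.88. The steps were tested on simulated data with known changes. Replicate numbers come from the labels. Deviations from the group mean correlated between WT and DKI libraries of equal number on every day (r at least 0.687 on day 0, 0.156 on day 3 and 0.336 on day 6) and so did those of days 3 and 6 within a genotype (at least 0.135). For days 0 and 3 within a genotype r lay between −0.204 and 0.182, with both signs. Alternatives were the pseudocount, the filter, scaling, the spread model, the replicate number as a block, all libraries in one fit, and leaving out each library; the split by year in the library names was added after the data were seen.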

Additional observations from a re-analysis of the deposited data

Results flagged for a closer look

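*Retnla* is listed because its interaction of genotype and time passed the test. The interaction from day 0 to day 3 was 6.02 on the log2(RPKM + 1) scale, with a limma adjusted p of 0.0271 over 10212 genes. The difference of DKI minus WT was positive in 3 of 3 same-numbered pairs on day 3, while the 6 libraries of day 0 held 0 or 1 read each, so the interaction restates the day 3 difference. With no filter on low values the adjusted p was 0.0902. The groups had too few libraries for a search of single libraries that stand apart.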

How the results depend on the processing

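The 2 calls of day 3 became 1 (*Retnla*) with a pseudocount of 0.1, 0 with no filter on low values, 0 in the libraries whose names carry the later year and between 0 and 1 with 1 library left out. The 2 calls of day 3 against day 0 in DKI cells became 1 (*Retnla*) with no filter and with all 18 libraries fitted together, and between 1 and 2 with 1 library left out. The 1 interaction call from day 0 to day 3 became 0 with no filter, 2 with quantile normalization, 0 with all 18 libraries fitted together, 2 with a replicate block and between 0 and 1 with 1 library left out. Over all genes, the calls of day 3 (313 higher and 410 lower) became 58 and 81 with no filter, 564 and 795 with all 18 libraries and 163 and 206 in the later year, and those of day 6 (268 and 474) became 10 and 28, 519 and 1054, and 26 and 12. Leaving out 1 library moved the higher calls of day 3 to between 83 (without WT replicate 3) and 329 and those of day 6 to between 27 (without DKI replicate 3) and 332, and the total moved by over 1.5 times without any WT library or DKI replicate 2 or 3 on day 3 and without replicate 1 or 3 of either genotype on day 6. From day 0 to day 3 in DKI cells 1297 and 2097 became 858 and 1332 with no filter, and the interaction calls of day 0 to day 3 in the higher direction went from 1.20% of the genes tested to 61 genes. The other 7 counts of called members did not change under any alternative run. The fit without a filter tests all 20298 genes, and leaving out a library reduces the samples; the causes of the other changes were not tested. The replicate block changed no other call of the 5 genes. Median centring moved the day 3 differences to 6.10 for *Retnla* and 2.56 for *Retnlg*, both called. In WT day 3 against day 0 without a filter, *Chil3* was not called (adjusted p = 0.0617 from limma) and *Chil4* was called in its place.

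With a pseudocount of 0.1 the day 3 to day 6 interaction of *Chil1* turned from 0.10 to −0.68. With 1 library left out, the sign changed for differences that were never called. For *Chil1* these ran from −0.56 to 0.22 (genotype, day 0), −0.57 to 1.05 (genotype, day 6), −1.27 to 0.36 (DKI day 6 against day 3), −0.41 to 1.21 (interaction, day 0 to day 6) and −0.97 to 0.66 (interaction, day 3 to day 6). For *Chil3* they ran from −0.54 to 1.76 (genotype, day 3), −0.24 to 3.04 (genotype, day 6) and −0.71 to 2.57 (interaction, day 3 to day 6). For *Chil4* they ran from −0.33 to 1.03 (genotype, day 6) and −0.34 to 1.01 (interaction, day 3 to day 6). For *Retnla* they ran from −0.99995 to 3.02 (DKI day 6 against day 3) and −3.58 to 0.44 (interaction, day 3 to day 6). For *Retnlg* they ran from −0.86 to 0.0725 (genotype, day 0) and −1.41 to 0.18 (interaction, day 3 to day 6). The *Retnla* interaction from day 0 to day 3 stayed between 5.27 and 7.38 and was lost (adjusted p between 0.0551 and 0.0683) without any of the 6 day 0 libraries or WT day 3 replicate 2 or 3.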

Other observations

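On day 6 the replicates of both genotypes were ordered in opposite ways by *Chil1* and *Chil3*. In WT MDCs *Chil1* was at 1.73, 0.414 and 0.0196 RPKM in replicates 1, 2 and 3, where *Chil3* was at 11.5, 411 and 1171 RPKM. In DKI MDCs *Chil1* was at 8.71, 0.106 and 0.0171 RPKM and *Chil3* at 118, 235 and 7264 RPKM. On day 3 the orders were opposite in DKI MDCs (*Chil1* at 2.77, 2.60 and 0.228 RPKM, *Chil3* at 19.8, 50.4 and 269 RPKM) but not in WT MDCs, where replicate 2 was the highest in both genes. On day 0 the orders were not opposite, since replicate 1 was the highest of the DKI monocytes in both genes and replicate 3 the lowest of the WT monocytes in both. The opposite orders were picked after the values were seen, and their share among other pairs of genes was not computed. Libraries of equal number deviate together, so the genotypes are not independent here. The lowest *Chil1* value of day 6 rests on about 1 read in each genotype.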
